A study of Homo sapiens with 12 samples.

Results

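C22orf34 (ENSG00000188511.12 in GENCODE 29) is a human gene whose transcripts are annotated as a long intergenic noncoding RNA. It held the second largest number of NONO peaks, summed over 6 peak lists, in 22Rv1 cells, a human prostate cancer cell line. A site with peaks in several lists is counted in each of them. The members described here are all peaks that the authors' annotation assigned to C22orf34, 567 of the 26351 peaks in 6 peak lists. MIRLET7BHG, the next transcript above it, held 662 peaks and GSE1, the next below it, held 498. The longest list, SKBG-1(R) replicate 2, alone held 235 of the C22orf34 peaks, 365 of MIRLET7BHG and 358 of GSE1. The gene was chosen by its number of peaks and by its smaller share of the SKBG-1(R) lists, so both are given below as descriptions, without a test.

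NONO was mapped by eCLIP, in which protein is crosslinked to RNA by UV light (400 mJ), immunoprecipitated, and the RNA bound to it is sequenced next to a matched input library. Cells had received SKBG-1(R) at 20 µM in 0.04% DMSO, SKBG-1(S) at 20 µM in 0.04% DMSO, or 0.04% DMSO alone, for 4 h. SKBG-1(R) and SKBG-1(S) are stereoisomers. The study's title speaks of small molecules aimed at NONO, and the sample labels do not say which of them acts on it. Each treatment had 2 immunoprecipitations, each compared with its own input, so 12 libraries gave 6 lists. All groups came from this single cell line, and the sample labels name no genotype for them. Nothing in the labels says whether the replicates were grown as separate cultures. The p-values thus reflect spread between the lists, and that spread may be technical. Peak lists carry no expression levels. The identity of the cells was therefore not checked against marker levels.

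NONO belongs to the DBHS family of nuclear RNA-binding proteins, together with SFPQ and PSPC1. It is known as a component of paraspeckles, nuclear bodies built on the noncoding RNA NEAT1, and it contacts introns of RNAs that are still being transcribed. C22orf34 carries its name from an early prediction of an open reading frame. RefSeq now lists the locus as MIR3667HG, the host gene of the microRNA miR-3667, which is embedded in an intron. Host genes give rise to microRNAs when their primary transcript is cut by the nuclear Microprocessor complex.

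In GRCh38 the gene lies on the minus strand of chromosome 22, at chr22:49414524-49657542, and is 243.019 kb long. GENCODE lists 7 transcripts. Both long transcripts run 242.981 and 221.234 kb, and their first intron spans most of the locus. Both short transcripts, which begin near the same start, run 37.899 and 36.96 kb. An inner transcript of 5.279 kb (ENST00000343999.1) begins inside the gene and ends beside the longer of the short transcripts, 37.9 kb from the annotated start.

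The most exonic contacts fell in a single exon, and 3 places there are shown because each was covered by a peak in all of the replicate 2 lists. It is exon 3 of the inner transcript, chr22:49622195-49623610, 1416 nt long and 33.932 to 35.347 kb from the start of the gene. No other annotated transcript has this exon. The sequences below are the RNA-sense (minus) strand, 5′ to 3′, from GENCODE 29 transcripts on GRCh38, and capitals mark the bases that the peaks of all 3 replicate 2 lists have in common.
Site 1 (chr22:49623328-49623397): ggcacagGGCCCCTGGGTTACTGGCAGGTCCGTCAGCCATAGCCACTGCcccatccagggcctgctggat
Site 2 (chr22:49623227-49623269): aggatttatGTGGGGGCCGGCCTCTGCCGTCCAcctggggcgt
Site 3 (chr22:49622275-49622331): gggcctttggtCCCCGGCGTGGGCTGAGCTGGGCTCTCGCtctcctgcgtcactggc

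All 3 sites are rich in G and C. Their G and C content is 67.1% at site 1, 67.4% at site 2 and 71.9% at site 3. In the replicate 2 lists, the authors' log2 enrichment over input at site 1 was 5.52 with SKBG-1(R), 4.29 with SKBG-1(S) and 3.55 with DMSO. At site 2 it was 5.14 with SKBG-1(R), 3.60 with SKBG-1(S) and 3.72 with DMSO, and at site 3 it was 4.46, 3.72 and 3.35 in the same order of treatments. At each site the enrichment was highest in SKBG-1(R) replicate 2, the longest list. This rests on 1 list per treatment and has no replicate check, since no replicate 1 list held a peak in the exon.

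Exonic peaks taken as a whole were also richer in G and C than the rest of the exons. Bases of annotated C22orf34 exons inside exonic peaks were 67.3% G or C (1335 bases), against 55.0% for exonic bases outside them (5434 bases). The bases outside include exons 216.33 kb or more from the start, where no peak lay. Most bases inside come from exon 3 of the inner transcript, so this comparison is largely between different exons. Within exon 3 of the inner transcript the shares were 68.5% inside peaks (841 bases) and 55.7% outside (575 bases). G alone made up 34.4% of the bases inside peaks of this exon and 23.8% of those outside. The letters come from 1 locus, so these are descriptions of it.

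The deposited lists differed greatly in length. For replicates 1 and 2, the lists of SKBG-1(R) numbered 1953 and 14847 peaks, those of SKBG-1(S) 1237 and 3967, and those of DMSO 669 and 3678. Every peak had a log2 enrichment of at least 3 and a −log10 p of at least 3. Library depth is unknown, since no read counts were used here. A region without a peak is therefore not shown to be unbound.

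C22orf34 held 28 and 235 peaks in the SKBG-1(R) lists, 54 and 83 in the SKBG-1(S) lists, and 30 and 137 in the DMSO lists. Under SKBG-1(R) this was 1.43% of the replicate 1 list (95% Wilson interval 0.994 to 2.06) and 1.58% of the replicate 2 list (1.39 to 1.80). Under SKBG-1(S) it was 4.37% (3.36 to 5.65) and 2.09% (1.69 to 2.59). Under DMSO it was 4.48% (3.16 to 6.33) and 3.72% (3.16 to 4.39). The intervals cover counting error only. Both SKBG-1(R) shares lay below the other 4, and the SKBG-1(S) lists sat on either side of DMSO replicate 2.

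**Figure D1:**
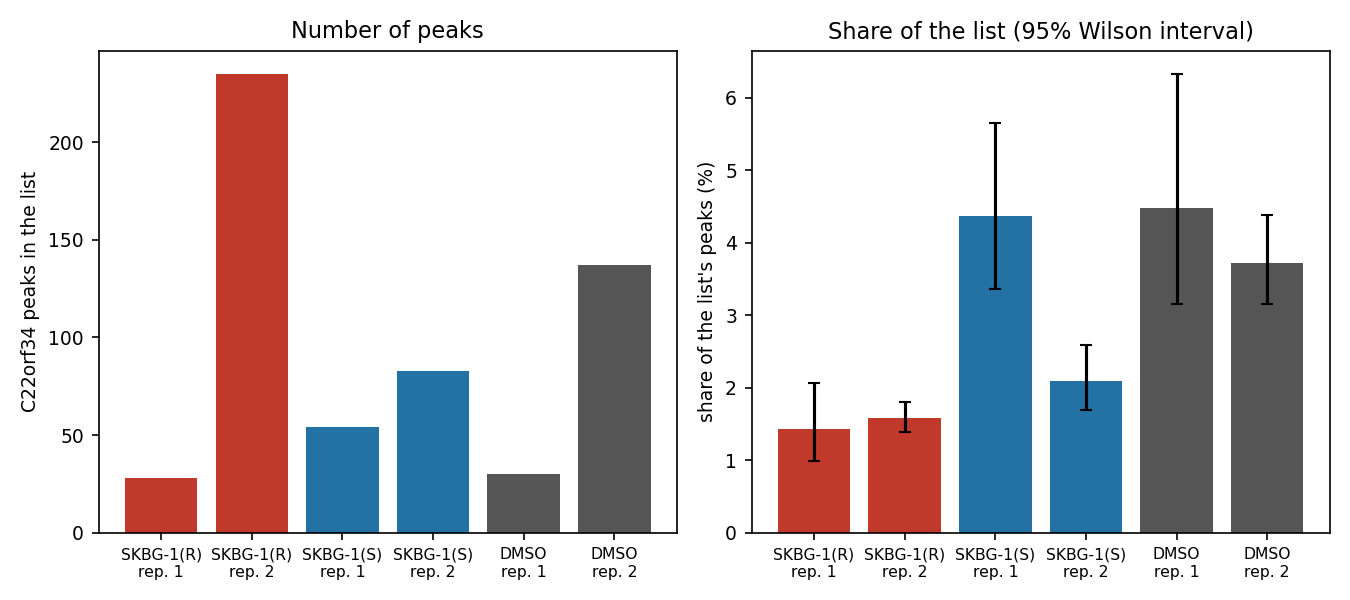
Left, number of C22orf34 peaks in each of the 6 lists. Right, the same as a percentage of all peaks of the list, with 95% Wilson intervals; the SKBG-1(R) lists held 1.43 and 1.58%, the SKBG-1(S) lists 4.37 and 2.09%, and the DMSO lists 4.48 and 3.72%.

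Averaged by treatment, the C22orf34 share was 1.51% ± 0.105 with SKBG-1(R), 3.23% ± 1.61 with SKBG-1(S) and 4.10% ± 0.537 with DMSO (SD, n = 2 lists each). From low to high the order was SKBG-1(R), SKBG-1(S), DMSO. SKBG-1(S) and DMSO differed by less than the SD of the SKBG-1(S) lists, and SKBG-1(R) and SKBG-1(S) by slightly more than it. Among the genes with a peak in the list, C22orf34 ranked 6 of 504 and 7 of 1295 with SKBG-1(R). It ranked 2 of 365 and 2 of 923 with SKBG-1(S), and 2 of 238 and 1 of 810 with DMSO. The number of C22orf34 peaks grew with the list unevenly. Replicate 2 held 8.39 times as many C22orf34 peaks as replicate 1 with SKBG-1(R), where the list was 7.60 times as long. With SKBG-1(S) the ratio was 1.54 for C22orf34 and 3.21 for the list, and with DMSO 4.57 and 5.50.

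Treatments were compared at matched dose and time through the share of the list, on the log2 scale of peaks per 10000 peaks with a prior count of 2. Both compounds were set against the same DMSO lists. For SKBG-1(S) against DMSO, the contrast that the choice of the gene did not use, the difference was −0.43 (SE 0.77, 95% interval −2.03 to 1.17). By limma with Benjamini-Hochberg adjustment over 479 genes it did not pass (adjusted p = 1). None of the 479 genes was called, 0%, and 6 had an unadjusted p under 0.05. The interval includes C22orf34 shares both well below and well above that with DMSO, so the p does not show that SKBG-1(S) and DMSO act alike. Within replicate numbers the log2 ratio of the shares, taken without the prior count, was −0.04 in replicate 1 and −0.83 in replicate 2. The difference of the fit turned to 0.09 without SKBG-1(S) replicate 2.

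SKBG-1(R) stood at −1.41 against DMSO (SE 0.77). Without the prior count, the log2 ratio of the shares was −1.65 within replicate 1 and −1.23 within replicate 2. The share with SKBG-1(R) was thus 0.320 times that with DMSO in replicate 1 and 0.425 times in replicate 2. Both SKBG-1(R) lists held a smaller share than both DMSO lists. The same held for 45 of 479 genes tested, or 9.39%. Because C22orf34 was chosen for its low share with SKBG-1(R), these values are a description. Against SKBG-1(S), SKBG-1(R) stood at −0.98 (SE 0.77), and the log2 ratio without the prior count was −1.61 within replicate 1 and −0.40 within replicate 2. Both SKBG-1(R) lists were again below both SKBG-1(S) lists, which was also so for 78 of 479 genes, or 16.3%. The difference between the compounds was −0.46 without SKBG-1(S) replicate 1 and −1.51 without SKBG-1(S) replicate 2.

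The direction of both contrasts depended on dividing by the length of the list. With no scaling the difference was 0.34 for SKBG-1(R) against DMSO and 0.29 for SKBG-1(R) against SKBG-1(S). The median of all 479 genes was then 1.10 and 0.75, so C22orf34 differed from it by −0.76 and −0.46. With list-length scaling the median of all genes was 0.23 and −0.08, and C22orf34 differed from it by −1.65 and −0.90. When each list was shortened to its 669 peaks of highest −log10 p, C22orf34 kept 3 and 5 peaks with SKBG-1(R), 34 and 27 with SKBG-1(S), and 30 and 65 with DMSO. The difference was then −2.97 against DMSO and −2.45 against SKBG-1(S). The lowest −log10 p kept was 31.6 in SKBG-1(R) replicate 2 and 3.16 in DMSO replicate 1, which lost no peak, so the shortened lists are not of equal stringency. With a log2 enrichment of at least 4 in every list the differences were −1.28 and −1.18. Peaks also depend on how much transcript a cell holds, which was not analysed here. In bulk samples, fewer cells with the transcript and less of it per cell cannot be told apart.

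C22orf34 was set beside 42 other entries with at least 10 peaks in all, more than 50% of them in the noncoding classes of the authors' annotation. Of these entries 4 were joint labels of peaks shared between genes. RP1-29C18.8, which lies in an intron of C22orf34, was also among the 42 and stood at −1.33 for SKBG-1(R) against DMSO. GENCODE types 4 others of the 42, FBXL18, RABGEF1, TULP4 and RAD9A, as protein coding, and they were counted because of the class of their peaks. The median difference was 0.07 for SKBG-1(R) against DMSO, 0.22 for SKBG-1(S) against DMSO and −0.18 for SKBG-1(R) against SKBG-1(S). Of the 42, 4, 5 and 9 lay below C22orf34 in the 3 contrasts. For SKBG-1(R) against DMSO the 4 were RP11-631N16.2 (−1.79), PKD1P6 (−1.42) and the joint labels AC007240.1,AC104794.5 (−2.19) and MIRLET7BHG,RP6-109B7.3 (−1.45). Without the 4 protein-coding genes the medians were 0.07, 0.19 and −0.18, and 4, 5 and 8 lay below it. MIRLET7BHG, the host of let-7 microRNAs, held more peaks than C22orf34 in both SKBG-1(R) lists (64 and 365) and in the replicate 1 lists of SKBG-1(S) (83) and DMSO (58). It held fewer in replicate 2 of SKBG-1(S) (50) and of DMSO (42). Its difference for SKBG-1(R) against DMSO was −0.16, an average over replicates that went opposite ways. Scaled to list length as in the fit, without the prior count, MIRLET7BHG stood at 327.7 with SKBG-1(R) and 867.0 with DMSO in replicate 1. In replicate 2 it stood at 245.8 with SKBG-1(R) and 114.2 with DMSO. The −0.16 therefore does not show that its share was alike with SKBG-1(R) and DMSO. RP11-475N22.4, an antisense transcript and the next noncoding one by number, held 125 peaks and stood at −1.21.

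All 567 C22orf34 peaks lay in the part of the gene nearest its start. The first lay 0.729 kb and the last 92.639 kb from the annotated start, and the remaining 150.379 kb, or 61.9% of the gene, held 0 peaks. The miR-3667 hairpin lies in this remainder, at chr22:49543393-49543466, 114.076 kb from the start. No list held a C22orf34 peak at the hairpin or beyond it. All peaks fell inside the span of both long transcripts, and 464 fell inside that of the 37.899 kb transcript.

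**Figure D2:**
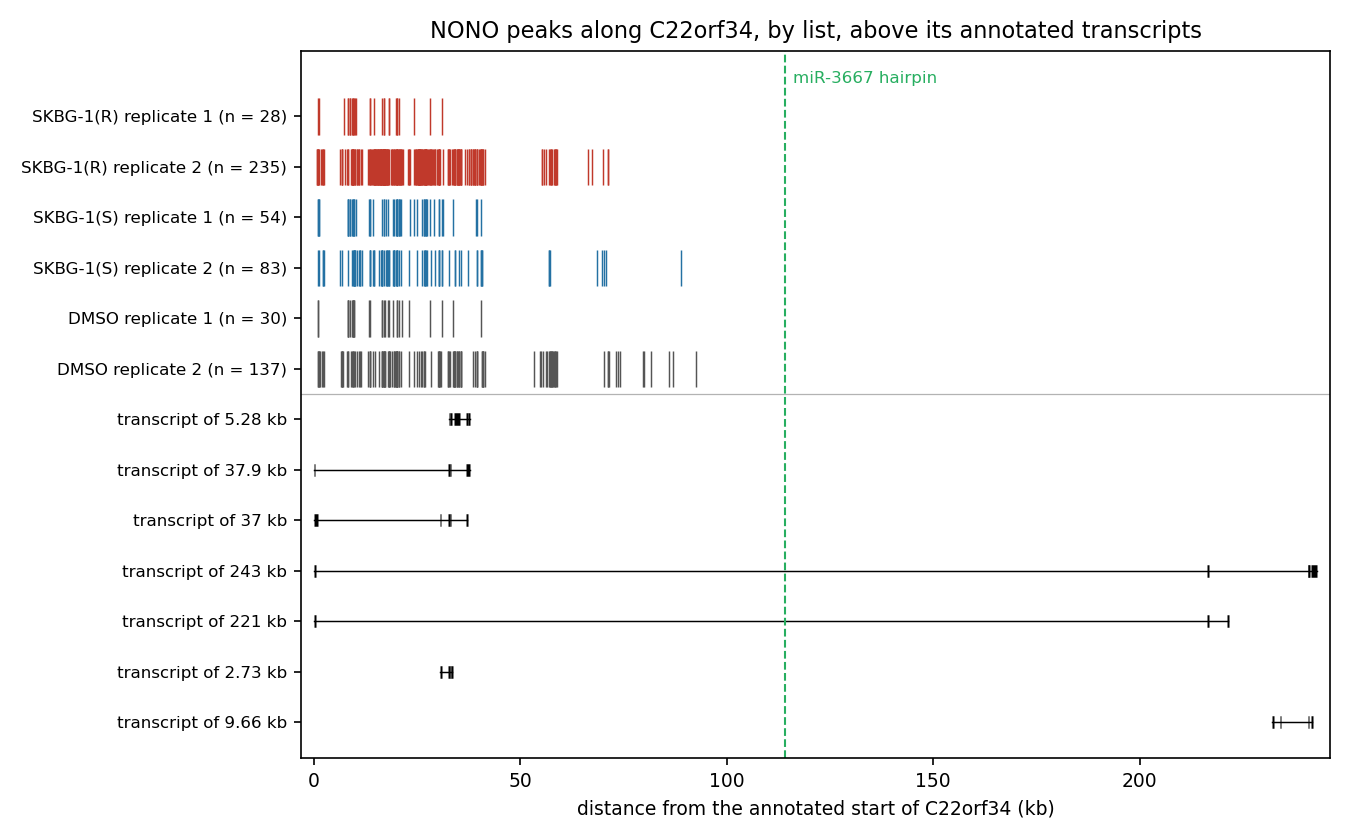
C22orf34 peaks of each list (coloured ticks, number of peaks in parentheses) by distance from the annotated start in kb, above the 7 annotated transcripts, labelled by their span in kb, with exons as bars. Peaks ended at 92.639 kb, short of the miR-3667 hairpin at 114.076 kb (dashed line).

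The contacts were on the strand of the transcript. Of 585 peaks at the locus, 0 were on the plus strand. The 18 peaks not assigned to C22orf34 belonged to transcripts nested in its introns on the same strand. RP1-29C18.8, a sense intronic transcript, held 0 and 6 with SKBG-1(R), 1 and 2 with SKBG-1(S), and 1 and 3 with DMSO. RP1-29C18.9, a long intergenic noncoding RNA, held 0 and 2, 0 and 1, and 0 and 2. Peaks there cannot be told apart from peaks in the C22orf34 intron. Counting them in moved the difference of SKBG-1(R) against DMSO to −1.44.

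The median distance of a peak from the start was 13.5 and 24.5 kb with SKBG-1(R), 20.0 and 19.4 kb with SKBG-1(S), and 16.5 and 26.8 kb with DMSO. The farthest peak lay at 31.1 and 71.3 kb, 40.5 and 89.0 kb, and 40.5 and 92.6 kb. The replicate 1 lists therefore stopped at or before 40.5 kb under each treatment, and the replicate 2 lists reached 71.3 kb or more. Peaks within 10 kb of the start made up 42.9 and 12.3% of C22orf34 peaks with SKBG-1(R). They made up 25.9 and 16.9% with SKBG-1(S), and 40.0 and 16.1% with DMSO.

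The longer of the short transcripts ends 37.9 kb from the start. Beyond that point, all in the first intron of the long transcripts, SKBG-1(R) lists held 0 and 42 peaks (17.9% of replicate 2), SKBG-1(S) lists 3 and 14 (5.56 and 16.9%), and DMSO lists 1 and 43 (3.33 and 31.4%). DMSO replicate 2 had the largest share of peaks in this stretch and SKBG-1(R) replicate 1 had none. Between 40 and 60 kb the replicate 2 lists held 25 peaks under SKBG-1(R), 7 under SKBG-1(S) and 25 under DMSO. Between 60 and 100 kb the replicate 2 lists held 5, 5 and 13 peaks and the replicate 1 lists 0.

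**Figure D3:**
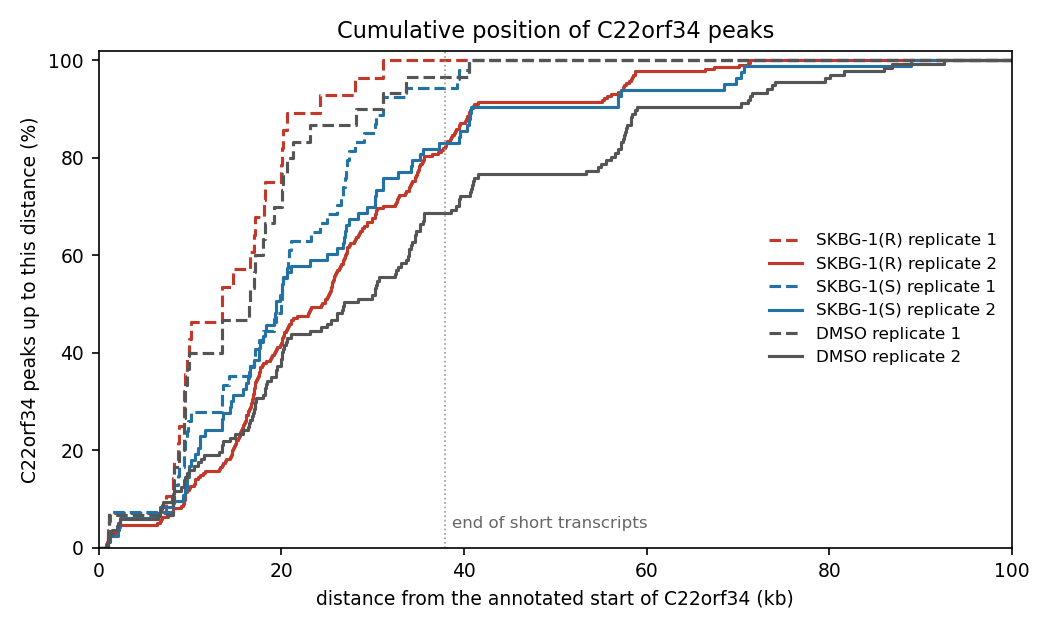
Cumulative percentage of C22orf34 peaks by distance from the annotated start in kb, for each list (dashed lines replicate 1, solid lines replicate 2). The dotted line is the 37.9 kb end of the longer of the short transcripts. Beyond it lay, of the replicate 2 peaks, 17.9% with SKBG-1(R), 16.9% with SKBG-1(S) and 31.4% with DMSO.

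Position along the gene was not used to choose it, so SKBG-1(S) was tested against DMSO. As a fraction of gene length (0 at the start), the median position averaged 0.0811 ± 0.00163 with SKBG-1(S) and 0.0892 ± 0.0301 with DMSO (SD, n = 2 lists each). The difference, −0.00803, was smaller than the spread of the DMSO lists (exact two-sided permutation test, p = 1). A design of 2 lists against 2 cannot give a p below 0.333.

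Contacts were mostly intronic. The authors' annotation placed 531 peaks in introns and 36, or 6.35%, in exons. Exonic bases are few beside the 243.019 kb of the gene, with 1335 inside exonic peaks and 5434 outside. The intronic majority is therefore not shown to be a preference. Peaks in distal introns, over 500 nt from an exon, numbered 25 and 195 with SKBG-1(R), 45 and 70 with SKBG-1(S), and 26 and 108 with DMSO. Peaks in proximal introns, up to 500 nt from an exon, numbered 3 and 19, 9 and 9, and 4 and 18. Distal introns held the majority in every list.

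Exonic peaks were found in the replicate 2 lists only, 21 with SKBG-1(R), 4 with SKBG-1(S) and 11 with DMSO. The replicate 1 lists held 0 exonic peaks among 28, 54 and 30. Exon 3 of the inner transcript held 25 of the 36, namely 13 with SKBG-1(R), 3 with SKBG-1(S) and 9 with DMSO. Peaks of the replicate 2 lists covered 55.9% of its bases with SKBG-1(R), 6.99% with SKBG-1(S) and 34.7% with DMSO. The other exonic peaks were few. Exon 1 of the 36.96 kb transcript, near the start of the gene, held 3 with SKBG-1(R) and 1 with DMSO. The last exon of the 37.899 kb transcript held 3 with SKBG-1(R) and 1 with SKBG-1(S).

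Merging peaks that shared at least 1 nt gave 231 regions in C22orf34. A peak was found in 1 list for 119 regions, in 2 lists for 57, in 3 for 22, in 4 for 17, in 5 for 7 and in all 6 for 9. The regions with all 6 lists lay 1.056 to 20.6 kb from the start. Regions found in a single replicate 2 list numbered 82 for SKBG-1(R), 7 for SKBG-1(S) and 27 for DMSO. The replicate 1 lists had 1, 2 and 0 such regions in the same order of treatments. Without SKBG-1(R) replicate 2, 161 regions were left, and 9 of them were in all 5 other lists.

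No region had a peak in both lists of a treatment and in no other list. Both lists of a treatment held a peak in 17 regions with SKBG-1(R), 27 with SKBG-1(S) and 19 with DMSO. Every one of these regions also held a peak of another treatment. Regions with peaks in replicate 2 lists only numbered 182, and regions with peaks in replicate 1 lists only numbered 5. Regions found once or in replicate 2 alone thus made up most of the 231.

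A peak in 5 or 6 lists was found in 16 regions, each of which by construction holds a peak of every treatment. Of these regions 5 were packed into 630 nt between 9 and 10 kb from the start, at chr22:49647629-49648258. The region whose weakest list was highest lay 16.6 kb from the start, at chr22:49640917-49641007. Its log2 enrichment was 3.88 and 4.40 with SKBG-1(R), 3.66 and 3.85 with SKBG-1(S), and 3.93 and 4.67 with DMSO. The treatments overlapped there.

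Other shared regions varied more. The widest range was at chr22:49640346-49640694, 17.0 kb from the start, which joined 21 peaks over 349 nt. Its highest log2 enrichment was 3.60 and 6.38 with SKBG-1(R), 4.37 and 3.19 with SKBG-1(S), and 4.11 and 4.05 with DMSO. The value of 6.38 was also the highest of all C22orf34 peaks. The region nearest the start, chr22:49656333-49656639, had 4.16 and 3.80 with SKBG-1(R), 4.60 and 3.64 with SKBG-1(S), and 3.80 and 3.31 with DMSO. Of the 16 regions, 7 were highest under SKBG-1(R) (replicate 2), 7 under SKBG-1(S) (replicate 1) and 2 under DMSO (replicate 2). DMSO replicate 2 had the lowest value for 9. Each value is the highest among the peaks of that list in the region, which favours lists with several peaks there.

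**Figure D4:**
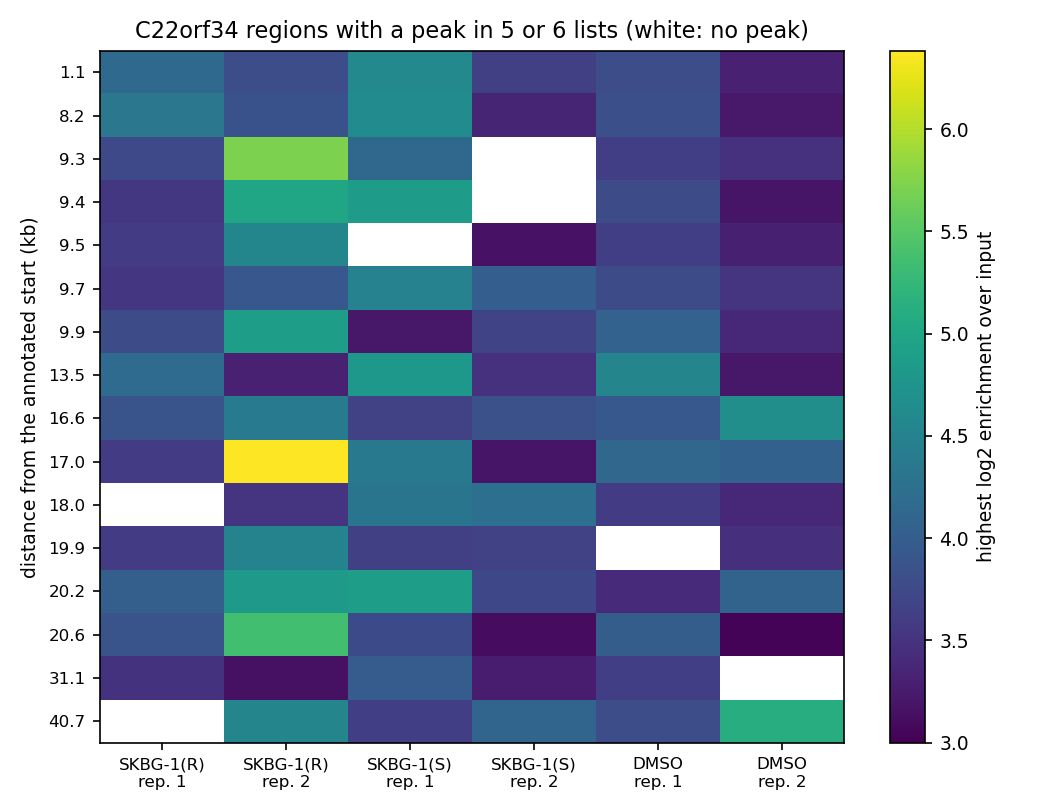
Highest log2 enrichment over input (authors' values, colour) in each list for the 16 C22orf34 regions with a peak in 5 or 6 lists, from the start of the gene downwards (distance in kb). White marks a list with no peak; the brightest cell is 6.38 in SKBG-1(R) replicate 2, 17.0 kb from the start.

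The strongest C22orf34 peak lay at another place in each list. With SKBG-1(R) it was 8.27 kb from the start in replicate 1 (log2 enrichment 4.48) and 16.9 kb in replicate 2 (6.38). With SKBG-1(S) it was at 20.2 kb (4.90) and 1.28 kb (5.66), and with DMSO at 13.5 kb (4.54) and 26.6 kb (6.23). All 6 were intronic, and the stronger of each pair was in replicate 2.

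The share of C22orf34 peaks that overlapped a peak of another list was above that of the rest of the list in 28 of the 30 ordered pairs of lists. The pairs share lists and were not tested. C22orf34 was chosen for its many peaks in these same lists, and closely packed peaks overlap more readily. The higher shares are therefore a description and not a separate finding. The exceptions were SKBG-1(S) peaks in SKBG-1(R) replicate 1, where 48.1% of the SKBG-1(S) replicate 1 peaks in C22orf34 overlapped, against 58.6% of its other peaks, and 21.7% of the SKBG-1(S) replicate 2 peaks, against 21.8%. Of the SKBG-1(R) replicate 1 peaks, 71.4% overlapped a peak of SKBG-1(R) replicate 2, against 54.2% of the other peaks of that list. For SKBG-1(S) replicate 1 in replicate 2 the shares were 55.6% and 54.3%, and for DMSO replicate 1 in replicate 2 they were 76.7% and 31.1%. Peaks of SKBG-1(R) replicate 1 recurred in other treatments too. Of the SKBG-1(R) replicate 1 peaks in C22orf34, 78.6% overlapped a peak of DMSO replicate 1 and 71.4% one of DMSO replicate 2, against 24.1 and 26.1% of the other peaks of the list. The numbers facing each other were unlike. In C22orf34, 28 SKBG-1(R) replicate 1 peaks faced 30 of DMSO replicate 1, and elsewhere 1925 faced 639. This gap is thus tied to the low SKBG-1(R) share by which the gene was chosen. In the other direction, 73.3% of the DMSO replicate 1 peaks in C22orf34 overlapped a peak of SKBG-1(R) replicate 1 and 61.0% of its other peaks did. From the longest list, 10.2% of the SKBG-1(R) replicate 2 peaks in C22orf34 overlapped a peak of SKBG-1(R) replicate 1 and 14.0% one of DMSO replicate 1, against 8.98 and 3.93% of its other peaks.

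Within each list the median enrichment of C22orf34 peaks was near that of all other peaks. Every peak had a log2 enrichment of at least 3, so weaker contacts do not enter these medians. Values under 3.5 made up 7.41% of C22orf34 peaks and 24.8% of others in SKBG-1(S) replicate 1. In DMSO replicate 2 these shares were 55.5 and 39.6%, the other way round. The median log2 enrichment of C22orf34 peaks was 3.72 and 3.96 with SKBG-1(R), 3.90 and 3.55 with SKBG-1(S), and 3.79 and 3.46 with DMSO. For the rest of the same lists it was 3.77 and 3.75 with SKBG-1(R), 3.76 and 3.64 with SKBG-1(S), and 3.72 and 3.59 with DMSO. C22orf34 was higher in 3 lists and lower in 3, with a mean difference of 0.02 ± 0.14 (SD, n = 6 lists; exact two-sided sign-flip permutation test, p = 0.719). Between treatments, the median over C22orf34 peaks averaged 3.73 ± 0.25 with SKBG-1(S) and 3.62 ± 0.23 with DMSO (SD, n = 2 lists each; difference 0.10, exact two-sided permutation test, p = 0.667).

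**Figure D5:**
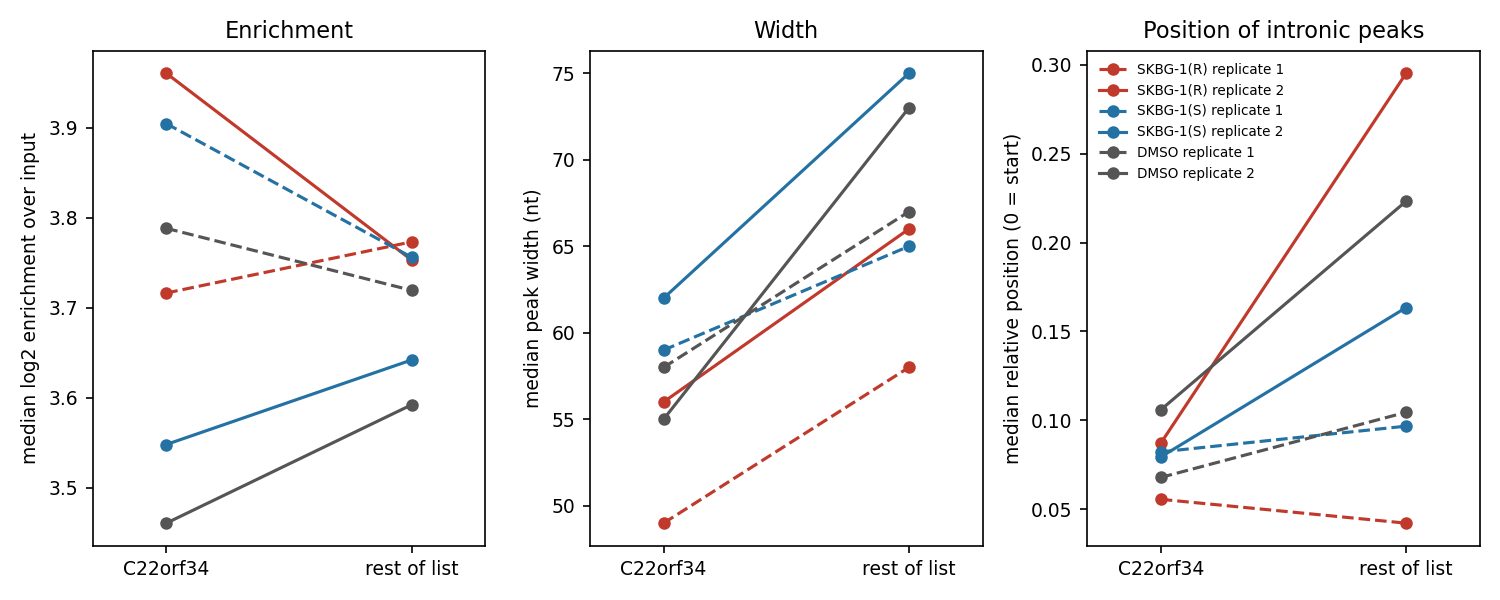
Median log2 enrichment over input, median peak width in nt and median relative position of intronic peaks, for C22orf34 (left in each panel) and for the rest of the same list (right), with 1 line per list (dashed lines replicate 1, solid lines replicate 2). Width was lower for C22orf34 in 6 of 6 lists and position in 5 of 6, and enrichment went both ways.

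C22orf34 peaks had a lower median width than the other peaks of their list in 6 of 6 lists. Their median width was 49 and 56 nt with SKBG-1(R), 59 and 62 nt with SKBG-1(S), and 58 and 55 nt with DMSO. The rest of the lists had 58 and 66 nt with SKBG-1(R), 65 and 75 nt with SKBG-1(S), and 67 and 73 nt with DMSO. The mean difference was −10.8 ± 4.17 nt (SD, n = 6 lists). By the exact two-sided sign-flip permutation test p was 0.03125, the smallest that 6 lists can give. Over the 3 such tests made here, of enrichment, width and position, its Benjamini-Hochberg adjusted p was 0.09375 and did not pass 0.05. Against the peaks of other noncoding transcripts the difference was −4.83 nt (exact p = 0.125). Width may be tied to the number of peaks by which the gene was chosen, since some narrow peaks lay end to end. In SKBG-1(R) replicate 2, for example, a peak at chr22:49640346-49640370 adjoined one at chr22:49640371-49640393. This tie was not tested.

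As a fraction of the annotated gene length, intronic C22orf34 peaks lay nearer the start of their gene than other intronic peaks in 5 of 6 lists. Their median relative position was 0.0556 and 0.0871 with SKBG-1(R), 0.0823 and 0.0794 with SKBG-1(S), and 0.0679 and 0.106 with DMSO. Other intronic peaks were at 0.0422 and 0.295, 0.0967 and 0.163, and 0.105 and 0.223. The mean difference was −0.0745 ± 0.0807 (SD, n = 6 lists; exact two-sided sign-flip permutation test, p = 0.0625, adjusted p = 0.09375). SKBG-1(R) replicate 1 was the exception, and its other intronic peaks had the lowest median position of the 6 lists. With means in place of medians the difference was −0.167, and against other noncoding transcripts −0.237 (exact p = 0.03125 each). With a log2 enrichment of at least 4 it was −0.0587 (exact p = 0.25), and with a −log10 p of at least 5 it was −0.0507 (exact p = 0.219). All these values divide by the whole 243.019 kb of C22orf34, a length set by its long transcripts. Of the 567 peaks, 464 fell inside the span of the 37.899 kb transcript. Position along that transcript was not computed, so the direction holds for the full length only.

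Within 1000 kb of C22orf34, 9 genes outside the locus held a peak. The nearest was BRD1, a bromodomain protein of histone acetyltransferase complexes, 115.7 kb away, with 1 and 25 peaks under SKBG-1(R), 0 and 3 under SKBG-1(S), and 0 and 6 under DMSO. PLXNB2, a receptor for semaphorins, held the most of them, with 9 and 71, 7 and 18, and 5 and 24 peaks. TRABD held 2 and 28, 0 and 4, and 0 and 2. The remaining 6 genes, ZBED4, PANX2, SELO, MAPK12, PPP6R2 and SBF1, held 10, 4, 1, 1, 6 and 9 peaks over all lists. Each of the 9 had its largest number of peaks in SKBG-1(R) replicate 2, the longest list.

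Genes whose pattern over the lists was much like that of C22orf34 were found by Pearson's r of log2 peaks per 10000 over the 6 lists, as a description. PTMA, which encodes prothymosin alpha, was at 0.966, with 5.12 and 10.8 peaks per 10000 with SKBG-1(R), 48.5 and 15.1 with SKBG-1(S), and 44.8 and 24.5 with DMSO. Peaks shared between MIRLET7BHG and RP6-109B7.3 were at 0.959, RP11-475N22.4 at 0.942 and MROH1 at 0.929. C22orf34 itself had 143.4 and 158.3 peaks per 10000 with SKBG-1(R), 436.5 and 209.2 with SKBG-1(S), and 448.4 and 372.5 with DMSO. These r values share the 6 list lengths. PTMA rests on 41 peaks, and the peaks shared between MIRLET7BHG and RP6-109B7.3 number only 12.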

How the data were processed

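NONO eCLIP was done in 22Rv1 cells grown for 40 h, treated for 4 h and crosslinked with 400 mJ, per the labels' protocols. The authors deposited 1 peak list per immunoprecipitation. The submitters' processing notes name STAR 2.4.0i, cutadapt 1.9, hg19 and hg38. The peak caller is not given in the sources used here. Deposited −log10 p and log2 enrichment values per peak, of immunoprecipitate against input, are the authors' own and served only to describe, rank or filter peaks within a list. Coordinates are GRCh38. GENCODE 29 gave gene positions and exon sequences.

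Peaks of C22orf34 were counted per list. A joint label of peaks shared between genes was counted as a gene of its own. Intervals of shares are 95% Wilson intervals (counting error only), and depth is unknown. For the 479 genes with at least 10 peaks, log2 peaks per 10000 (prior count 2, scaled to list length) were fitted in limma 3.58.1 (R 4.3.3, trended variance, all 6 lists) at a Benjamini-Hochberg threshold of 0.05, after the fit was tested on simulated data. Other values were computed in Python 3.11.15 with exact permutation tests. Named were the genes adjoining C22orf34 in number of peaks, its neighbours, the 5 with the most similar pattern (of which 1 is not reported here), the leading noncoding transcripts, shared regions and each list's strongest peak. The gene, lists and rules were chosen with earlier results of these data known. RNA-seq and NONO-knockout samples were not analysed here.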

Additional observations from a re-analysis of the deposited data

How the results depend on the processing

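The share of C22orf34 was recomputed under 19 alternatives. SKBG-1(R) against DMSO (−1.41) kept its sign under 18 of them, at −2.11 with −log10 p of at least 5, −0.79 with TMM scaling and −2.97 with shortened lists, and reversed to 0.34 with no scaling. Leaving out 1 list gave −1.55 to −1.28. SKBG-1(R) against SKBG-1(S) (−0.98) was −1.72, −0.50, −2.45 and, reversed, 0.29 under the same settings, and −1.51 to −0.46 when 1 list was left out. SKBG-1(S) against DMSO (−0.43) reversed to 0.049 with no scaling and to 0.094 without SKBG-1(S) replicate 2, with a range of −0.95 to 0.094 when 1 list was left out. The shortened lists and the counting-in of nested transcripts were chosen after seeing the data. By limma 0 genes were called for SKBG-1(S) against DMSO under all 19, with 0 to 23 genes at an unadjusted p under 0.05.

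With the replicate number as a block, SKBG-1(S) against DMSO was −0.43 (limma adjusted p = 1) and 0 genes were called. The replicate block cannot change a difference in this balanced design. Deviations of same-numbered lists correlated at 0.422 to 0.577 over 479 genes, but each group has only 2 numbers, and the labels give them no meaning.

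The enrichment of C22orf34 minus the rest (0.02) reversed to −0.000983 against other noncoding transcripts (exact p = 1), and was −0.01 to 0.05 when 1 list was left out. The width difference (−10.8 nt) was −8.58 nt for log2 enrichment of at least 4 (exact p = 0.1875), −8.25 nt for −log10 p of at least 5 (exact p = 0.09375) and −4.83 nt against other noncoding transcripts (exact p = 0.125). It was −11.8 to −9.4 nt when 1 list was left out. The position difference (−0.0745) was −0.167 with means and −0.237 against other noncoding transcripts (exact p = 0.03125 each), −0.0587 for log2 enrichment of at least 4 (exact p = 0.25), −0.0507 for −log10 p of at least 5 (exact p = 0.219), and −0.0921 to −0.0478 when 1 list was left out. With 5 lists the exact p cannot go below 0.0625. The causes were not tested. SKBG-1(S) minus DMSO ranged from −0.0293 to 0.0132 for the median position and from −0.08 to 0.28 for the median log2 enrichment when 1 list was left out. The planned G and C content of all peaks was not run, since no genome sequence was used here. Regions with a peak in all 6 lists numbered 10 when peaks had to share 50% of the shorter peak.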
